A study of Homo sapiens with 16 samples.

Results

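The interaction of 2 drugs in tumors of A375, a human melanoma line with mutant BRAF, was examined across the whole transcriptome as a 2 by 2 design. All 16 RNA-sequenced tumors of the series, of 16 in all, entered it. They had grown on both flanks of 8 NOG mice, a strain that lacks T, B and NK cells but keeps other host cells, and were taken on day 5 of treatment by intraperitoneal injection. The J+V group (mice 33 and 34) received both drugs at the doses of the single groups, the J group (mice 26 and 29) JQ1 at 50 mg/kg daily, the V group (mice 16 and 19) vemurafenib at 25 mg/kg in 2 doses per day, and the control group (mice 2 and 5) vehicle. Each group thus held 4 tumors from 2 mice, and every tumor came from the same cell line. Ribosomal RNA had been removed from total RNA, and the authors deposited FPKM, in which fragment numbers are divided by the length of the transcript and by the size of the library.

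JQ1 displaces BET proteins, which bind acetylated histones and help RNA polymerase II leave the promoter, and in many tumors it lowers growth genes. Vemurafenib blocks mutant BRAF, which in melanoma drives the MEK and ERK kinases and, through them, cyclin D and entry into the cell cycle. Independent action of the drugs on a gene was taken here to mean that their fold changes multiply, so that their log2 changes add. That is a choice of scale, and which scale holds was not tested.

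For each of the 13426 genes that reached 1 FPKM in 4 tumors or more, the departure from that sum was taken on log2(FPKM + 0.5) as J+V minus J minus V plus control. It equals the JQ1 effect with vemurafenib (J+V minus V) less the JQ1 effect without it (J minus control), and likewise with the drugs exchanged. A negative departure means a level in J+V tumors below the sum of the single drugs, a positive one a level above it. No read numbers were used, so the depth behind each value is unknown. The FPKM of all 23260 symbols summed to between 970443 and 1406986 per tumor, and small nucleolar RNAs took 38.0% to 57.0% of that sum. Between 12563 and 12991 genes reached an FPKM of 1. Of the 10 melanoma markers 8 passed the filter, of the 9 endothelial markers 1, of the 10 myeloid markers 3 and of the 9 lymphocyte markers 0, whereas all 9 fibroblast markers passed.

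No gene departed from the sum at an adjusted p below 0.05 (limma, Benjamini-Hochberg over all genes tested), in either direction (0% each). Fits on the mean of each mouse called 1 below and 1 above, and fits with array weights 96 and 20. The smallest adjusted p was 0.0981. At an unadjusted p below 0.05 there were 1275 genes below the sum (9.50% of those tested) and 418 above it (3.11%), where 671 in all are expected by chance. At the thresholds of the study, a fold above 2 with p below 0.01 and an FDR below 0.1, there were 22 genes below (0.164%) and 4 above (0.0298%). At an adjusted p below 0.1 alone, 42 genes lay below and 9 above. These counts belong to the main fit. The smallest adjusted p from limma was 0.136 without the mouse block, 0.1255 after rescaling to a common FPKM sum and 0.104 after upper quartile scaling. No gene passed 0.1 in those fits. After quantile normalization the smallest was 0.0763.

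The distribution of departures was shifted to the negative side. The median was -0.07, 61.5% of genes were negative, and 90% of all departures lay between -0.63 and 0.39, with a median standard error of 0.186. The share of genes below the sum among those at an unadjusted p below 0.05 depended on how tumors were scaled to each other. It was 75.3% in the deposited FPKM (1275 below, 418 above), 58.2% after upper quartile scaling (922 below, 663 above) and 48.5% after quantile normalization (863 below, 917 above). It was 83.3% after rescaling to a common FPKM sum (1225 below, 246 above) and 83.1% with small RNAs left out of that sum (1495 below, 304 above). Which tumors were included decided how many genes were called. Without mouse 34 limma called 315 genes below and 48 above, and without mouse 33 it called 3 and 0. Without tumor 34L alone the counts were 102 and 25, and without control mouse 5 they were 22 and 6. A group without a mouse is the 2 tumors of the other, so those fits hold no spread between its mice.

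The single drugs and their combination framed these departures. Against control, limma called 0 genes in J tumors and 0 in V tumors (0% in each direction), although 1140 genes in J and 2160 in V tumors had p below 0.05 before adjustment. Fits with array weights called 58 lower and 327 higher in J, and 25 lower and 41 higher in V tumors. Without control tumor 5R limma called 94 higher in J, and 175 lower and 248 higher in V tumors. With vemurafenib on board, 1116 genes were lower in J+V than in V tumors (8.31%) and 670 higher (4.99%), and on the mean of each mouse 131 and 103. With JQ1 on board, 2464 genes were lower in J+V than in J tumors (18.4%) and 1164 higher (8.67%), and on the mean of each mouse 1577 and 680. Rescaling to a common FPKM sum (TPM) moved the median of all genes in J+V against V to -0.18, against -0.03 as deposited, and gave 2653 lower and 235 higher than V (91.9% lower, against 62.5%). Upper quartile scaling gave 1842 lower and 1788 higher than J (50.7% lower, against 67.9%). Without mouse 33 there were 221 lower and 109 higher than V, and without mouse 29 there were 857 lower and 279 higher than J. That an effect passed the threshold in one pair of groups and not in the other does not show that it differed between them, and the departure is the test of that difference. All these effects share tumors with each other.

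**Figure D1:**
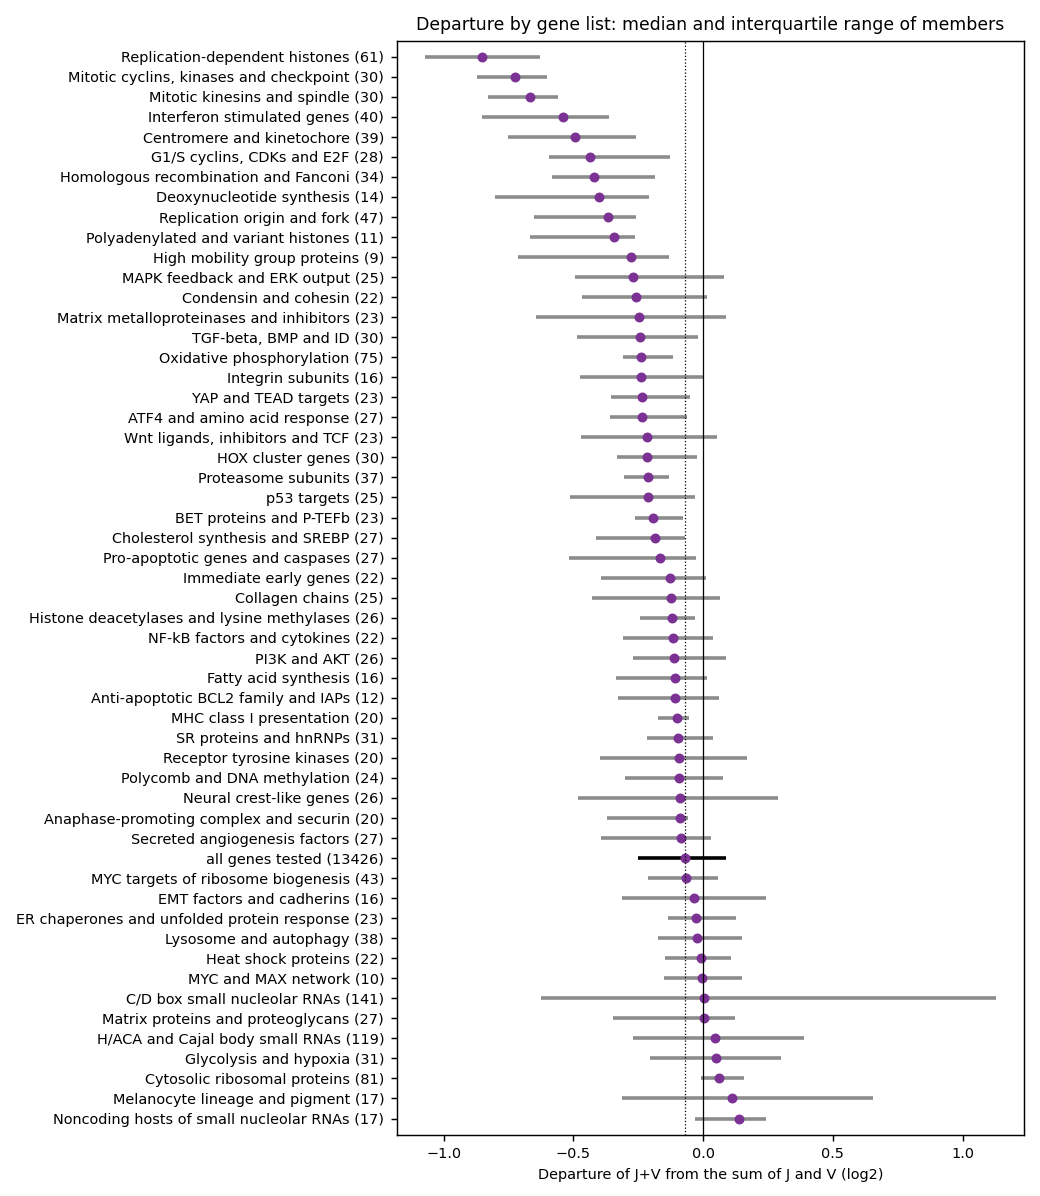
Departure of J+V tumors from additivity, in log2, for each gene list other than the cell type markers and for all genes tested. Points are medians over the members tested, whose number is in parentheses, bars the interquartile range, and the dotted line the median of all genes (-0.07). The lowest medians are those of replication-dependent histones (-0.85), mitotic cyclins and kinases (-0.72) and mitotic kinesins (-0.67), and the highest among the lists plotted that of the noncoding hosts of small nucleolar RNAs (0.14).

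Mitotic genes lay below the sum. Of 30 mitotic cyclins, kinases and checkpoint genes, 25 were below it at an unadjusted p below 0.05 and 0 above, against 9.50% and 3.11% of all genes, and all 30 departures were negative, with a median of -0.72 (-0.07 over all genes). The median JQ1 effect on this list was -0.90 with vemurafenib and -0.14 without, and the median vemurafenib effect -1.11 with JQ1 and -0.34 without. In J+V against V tumors 25 of the 30 fell, and in J+V against J tumors 29 of the 30, where 8.31% and 18.4% of all genes fell. The median departure was -1.11 without mouse 34 and -0.41 without mouse 33, and in bulk RNA fewer dividing cells and less of these RNAs per cell cannot be told apart.

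PLK1, a kinase needed to build the spindle and leave mitosis, had 2.38, 2.61, 5.77 and 3.57 FPKM in J+V tumors, against 11.7, 15.1, 14.02 and 12.1 in J tumors, 12.8, 8.55, 10.1 and 16.5 in V tumors and 15.5, 16.4, 15 and 15.2 in control tumors (each group in the order left and right flank of the lower-numbered mouse, then of the higher). The J+V tumors lay below all other tumors, lowest in mouse 33, while J, V and control overlapped. PLK1 departed by -1.41 (standard error 0.298, adjusted p = 0.0997 from limma): the sum of the single drugs came to 9.86 FPKM, and the J+V tumors averaged 3.39 on the log scale. CDCA8 (borealin), which holds the chromosomal passenger complex together, had 4.02, 3.49, 5.19 and 5.51 FPKM in J+V tumors, against 12.5, 13.1, 15.3 and 14.4 in J tumors, 12.1, 10.05, 10.7 and 14.3 in V tumors and 13.6, 18.9, 14.1 and 16.8 in control tumors. It departed by -1.11 (standard error 0.199, adjusted p = 0.0981), with 4.48 FPKM in J+V tumors where the sum came to 10.2. For FOXM1, the transcription factor that switches on many genes of G2 and mitosis, there were 3.32, 3.503, 5.58 and 5.67 FPKM in J+V tumors, against 10.01, 13.8, 11.99 and 11.3 in J tumors, 9.35, 8.77, 10.7 and 11.3 in V tumors and 10.4, 14.4, 11.9 and 11.8 in control tumors. Its J+V tumors again lay apart from all others, and its departure was -1.05 (standard error 0.224, adjusted p = 0.0997).

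UBE2C, the ubiquitin-conjugating enzyme of the anaphase-promoting complex, had 21.5, 20.7, 34.9 and 39.9 FPKM in J+V tumors, against 89.9, 97.9, 102 and 76.7 in J tumors, 69.1, 74.5, 74.95 and 87.8 in V tumors and 86.8, 137, 111 and 89.9 in control tumors. Its departure of -1.23 (standard error 0.273, adjusted p = 0.103) came with a JQ1 effect of -1.43 with vemurafenib (adjusted p = 0.000938) and -0.19 without. BIRC5 (survivin), a passenger protein that also inhibits caspases, had 6.15, 5.48, 10.01 and 9.06 FPKM in J+V tumors, against 19.3, 23.8, 24.3 and 23.4 in J tumors, 24.3, 15.3, 16.5 and 26.3 in V tumors and 22.2, 31.8, 24.95 and 29.04 in control tumors. The highest J+V tumor had 10.01 FPKM of BIRC5 and the lowest of the other tumors 15.3, with a departure of -1.13 (standard error 0.273, adjusted p = 0.129). CDC20, which activates the anaphase-promoting complex, departed by -1.20 (adjusted p = 0.199). The list of 20 genes of that complex includes UBE2C and CDC20. Of the 20, 5 were below the sum and 0 above, against 9.50% and 3.11% of all genes. The list median was -0.09 (-0.07 over all genes).

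The promoters of 4 genes that lay below the sum and were called lower in J+V than in V and in J tumors are printed here because cell cycle genes are known to share promoter elements: PLK1 and CDCA8 from the mitotic list, CDC20 from the anaphase-promoting complex (its call against V is lost without mouse 19 or without mouse 33) and HIST1H2BO (H2BC17) from the histones. Each run is the 150 bases before the RefSeq start on GRCh38.p14, 5′ to 3′ on the strand of the gene. Capitals mark, on either strand, TTTGAA (the cell cycle genes homology region, CHR), CCAAT (the CCAAT box, bound by NF-Y) and ATTTGCAT (the octamer). All 4 genes are on the plus strand, PLK1 at chr16:23678739-23678888, CDCA8 at chr1:37692366-37692515, CDC20 at chr1:43358831-43358980 and HIST1H2BO at chr6:27893275-27893424.
PLK1: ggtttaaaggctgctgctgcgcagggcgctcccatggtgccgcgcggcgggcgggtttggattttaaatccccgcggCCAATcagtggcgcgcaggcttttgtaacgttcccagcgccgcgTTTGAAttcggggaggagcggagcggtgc
CDCA8: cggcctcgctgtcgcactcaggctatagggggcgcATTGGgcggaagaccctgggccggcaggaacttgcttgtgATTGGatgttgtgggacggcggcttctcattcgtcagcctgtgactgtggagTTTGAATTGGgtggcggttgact
CDC20: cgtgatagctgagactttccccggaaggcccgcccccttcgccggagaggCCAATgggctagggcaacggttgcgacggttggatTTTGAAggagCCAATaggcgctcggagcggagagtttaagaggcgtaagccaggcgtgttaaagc
HIST1H2BO: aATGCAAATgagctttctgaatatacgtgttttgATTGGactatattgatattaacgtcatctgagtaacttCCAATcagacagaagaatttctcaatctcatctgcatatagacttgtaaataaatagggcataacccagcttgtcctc

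TTTGAA began 29, 23 and 65 bases before the start of PLK1, CDCA8 and CDC20. In CDCA8 it shared its last base with a CCAAT box on the other strand. The window of HIST1H2BO held no TTTGAA but an octamer 149 bases before the start and 2 CCAAT boxes. Over windows of 250 bases before to 50 after the start, TTTGAA stood in 15.4% of all 27305 promoters and 10.3% of the 10075 matched among the genes tested. It stood in 13 of 22 matched promoters of the mitotic cyclins and kinases (59.1%), 22 of 28 of the kinesin and spindle list (78.6%), 20 of 49 histone promoters (40.8%) and 1 of 40 of the replication fork list (2.5%). CCAAT was in 35.7% of all promoters, 68.2% of the mitotic promoters, 21 of 28 of the kinesin list and 87.8% of the histone promoters. It also stood, in lists whose median lay nearer the sum, in 81.8% of ER chaperone, 91.7% of HOX and 71.4% of cholesterol promoters. The octamer was in 1.8% of all and 19 of 49 histone promoters (38.8%), and the E2F site TTTGGCGC, also searched on both strands, in 0.7% of all and 6 of 40 replication fork promoters (15.0%). A match describes the letters only.

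**Figure D2:**
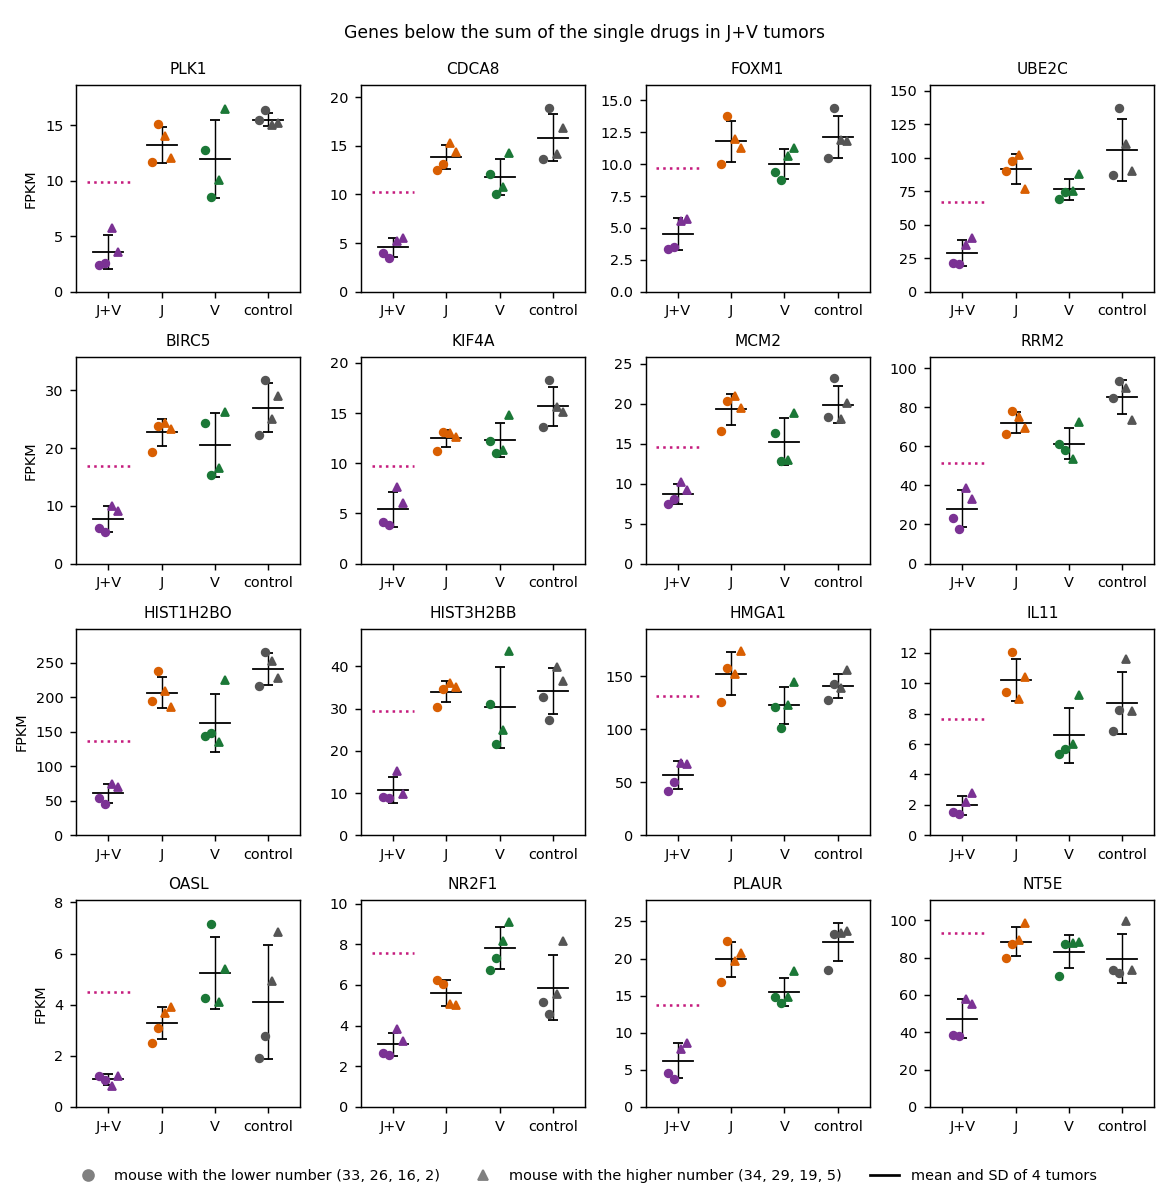
FPKM of 16 genes below the sum in each of the 16 tumors, by group (J+V, J, V, control). Circles and triangles are the tumors of the 2 mice of a group, black lines the mean and SD of 4 tumors, and the pink dotted line over J+V the level at which the log2 effects of J and V would add. The J+V tumors sit below that line in every panel, which follows from the choice of genes below the sum. Mouse 33 (circles) is lower than mouse 34 in every panel but OASL.

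Motor and spindle proteins followed the mitotic kinases. Of 30 genes, 20 were below the sum and 0 above, against 9.50% and 3.11% of all genes. The median was -0.67 (-1.06 without mouse 34, -0.32 without mouse 33). The JQ1 effect had a median of -0.83 with vemurafenib and -0.14 without, and the vemurafenib effect one of -1.02 with JQ1 and -0.36 without. KIF4A, a chromosome-bound kinesin that shortens the central spindle, had 4.12, 3.89, 7.62 and 6.07 FPKM in J+V tumors, against 11.2, 13.1, 13.02 and 12.6 in J tumors, 12.2, 11.1, 11.3 and 14.8 in V tumors and 13.6, 18.3, 15.6 and 15.1 in control tumors. It departed by -0.84 (standard error 0.231, adjusted p = 0.156), and CIT, the citron kinase of cytokinesis, by -0.77 (adjusted p = 0.14). Among 39 centromere and kinetochore genes 17 were below and 0 above (median -0.49). OIP5 of that list, which is needed to load the centromeric histone, departed by -0.75 (adjusted p = 0.125 from limma). Of 22 condensin and cohesin genes 9 were below and 0 above (median -0.26), among them CDCA5 (sororin), which protects sister cohesion, at -0.92 (adjusted p = 0.106).

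DNA replication lay below the sum by less. Of 47 origin and fork genes 21 were below and 0 above, against 9.50% and 3.11% of all genes. The median was -0.37 (-0.58 without mouse 34, -0.23 without mouse 33). Median effects were -0.44 for JQ1 with vemurafenib and -0.08 without, and for vemurafenib -0.69 with JQ1 and -0.33 without. MCM2, a subunit of the replicative helicase, had 7.39, 8.11, 10.2 and 9.23 FPKM in J+V tumors, against 16.5, 20.3, 20.9 and 19.4 in J tumors, 16.4, 12.8, 12.9 and 18.9 in V tumors and 18.3, 23.1, 18.04 and 20.03 in control tumors, a departure of -0.72 (standard error 0.18, adjusted p = 0.138). RRM2, the small subunit of ribonucleotide reductase, had 23.2, 17.9, 38.6 and 32.9 FPKM in J+V tumors, against 66.2, 78.03, 74.9 and 69.2 in J tumors, 61.04, 58.3, 53.4 and 72.3 in V tumors and 84.8, 93.3, 89.9 and 73.3 in control tumors, a departure of -0.92 (standard error 0.252, adjusted p = 0.156). In both genes the J+V tumors lay below every other tumor.

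Other lists of the cell cycle pointed the same way. The counts below and above were 7 and 0 of 14 deoxynucleotide genes (median -0.40), 16 and 0 of 34 homologous recombination and Fanconi genes (median -0.42), and 13 and 0 of 28 G1/S genes (median -0.44). Over all genes the shares were 9.50% and 3.11%. E2F1, the factor that turns on S phase genes, had 0.615, 0.473, 1.22 and 0.743 FPKM in J+V tumors, against 1.47, 2.41, 2.62 and 2.51 in J tumors, 1.91, 1.53, 1.56 and 2.303 in V tumors and 2.303, 2.51, 2.07 and 3.17 in control tumors. It fell in J+V against V (adjusted p = 0.00673, a call lost without mouse 19 or without mouse 33) and against J tumors (adjusted p = 0.000806), and departed by -0.76 (standard error 0.261, adjusted p = 0.251). CCND1, cyclin D1, had 29.9, 28.9, 48.8 and 37.3 FPKM in J+V tumors, against 75.4, 74.9, 70.1 and 76.2 in J tumors, 47.04, 40.6, 45.5 and 51.02 in V tumors and 56.7, 68.7, 61.3 and 68.1 in control tumors. It fell in J+V against J tumors by 1.06 on the log2 scale (adjusted p = 0.000153), J+V and V tumors overlapped, and the departure was -0.59 (standard error 0.184, adjusted p = 0.213). MKI67, which codes for the proliferation marker Ki-67, had 10.3, 9.52, 21.5 and 14.1 FPKM in J+V tumors, against 20.3, 27.8, 23.7 and 23.7 in J tumors, 20.7, 23.4, 29.01 and 26.4 in V tumors and 27.8, 30.01, 27.4 and 22.1 in control tumors. Tumor 34L was as high as some J and V tumors, and the departure of -0.72 (standard error 0.277, adjusted p = 0.301) was -1.11 without mouse 34 and -0.33 without mouse 33.

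Replication-dependent histones had the lowest median of the lists plotted. The replication-dependent histones are transcribed in S phase and their messages lack a poly(A) tail, which the removal of ribosomal RNA from total RNA leaves in the library. Of the 73 listed, 61 passed the filter. Of these 49 were below the sum and 0 above, against 9.50% and 3.11% of all genes. The median was -0.85 (-1.16 without mouse 34, -0.63 without mouse 33). The JQ1 effect had a median of -1.001 with vemurafenib and -0.15 without, and the vemurafenib effect one of -1.43 with JQ1 and -0.56 without. In J+V tumors 50 of the 61 fell against V and 53 against J, where 8.31% and 18.4% of all genes fell. Reads of near-identical histone copies may be split between them by the authors' pipeline, so single members are uncertain.

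HIST1H2BO, an H2B gene of the cluster on chromosome 6, had 53.9, 44.9, 74.9 and 69.4 FPKM in J+V tumors, against 194, 237, 209.6 and 186 in J tumors, 143, 148, 135 and 225 in V tumors and 216, 266, 253 and 228 in control tumors. The sum of the single drugs came to 136 FPKM and the J+V tumors to 59.6, a departure of -1.19 (standard error 0.233, adjusted p = 0.0981). HIST3H2BB (H2BC26), an H2B gene outside that cluster on chromosome 1, had 9.09, 8.93, 15.3 and 9.72 FPKM in J+V tumors, against 30.4, 34.7, 36 and 35.1 in J tumors, 31.1, 21.5, 25 and 43.5 in V tumors and 32.7, 27.2, 39.9 and 36.7 in control tumors. In HIST3H2BB the J tumors were at the control level (log2 difference 0.01), the V tumors ran across it, and the departure was -1.44 (standard error 0.273, adjusted p = 0.0981). H2AFX, the variant that is phosphorylated at DNA breaks, had 4.42, 4.99, 7.22 and 6.22 FPKM in J+V tumors, against 16.3, 18.1, 14.4 and 14.8 in J tumors, 11.2, 9.97, 11.8 and 17.4 in V tumors and 12.1, 16.2, 14.9 and 15.5 in control tumors. It departed by -1.18 (standard error 0.23, adjusted p = 0.0981 from limma). Of the 11 polyadenylated and variant histones 7 were below the sum (63.6%, against 9.50% of all genes) and 0 above (median -0.35).

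High mobility group proteins bend or loosen chromatin. Of 9 tested, 5 were below the sum (55.6%, against 9.50% of all genes) and 0 above (median -0.28). HMGA1, which binds AT-rich DNA and is abundant in growing cells, had 42.02, 49.8, 68.3 and 66.8 FPKM in J+V tumors, against 125, 158, 153 and 174 in J tumors, 121, 102, 123 and 144 in V tumors and 127, 142, 139 and 155 in control tumors. Both single drugs left it within 0.21 of control on the log2 scale, the J+V tumors lay below all others, and the departure was -1.23 (standard error 0.211, adjusted p = 0.0981). HMGA2, its close relative, departed by -0.69 (adjusted p = 0.103).

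**Figure D3:**
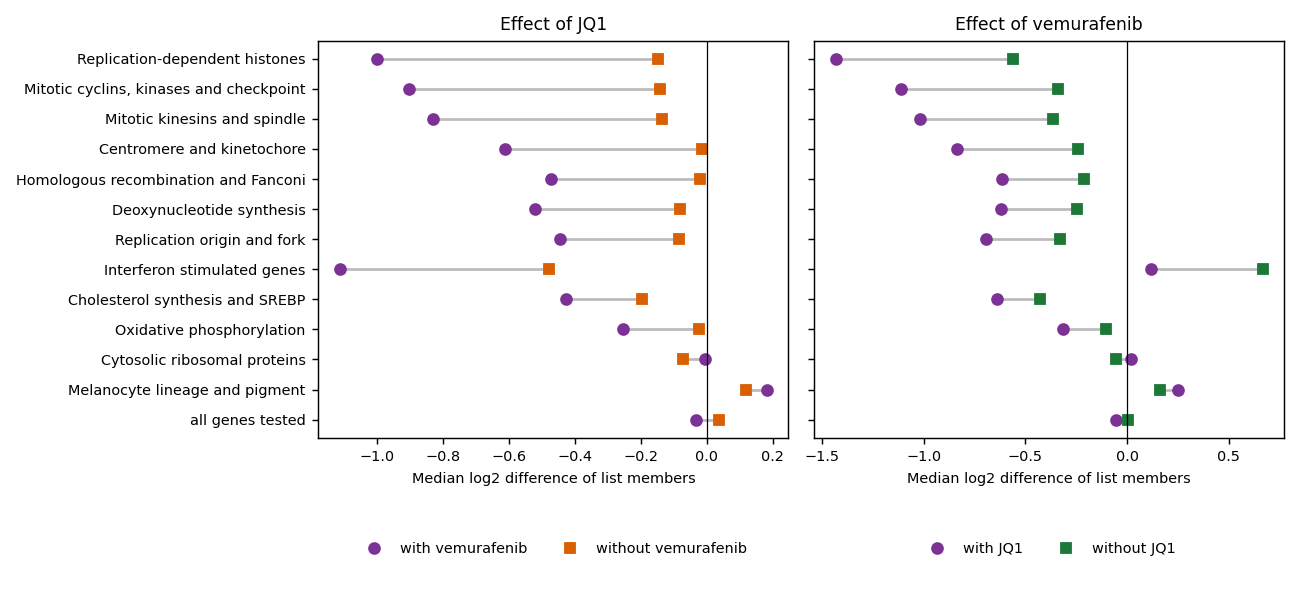
Median log2 effect of JQ1 (left panel) and vemurafenib (right panel) on the members of 12 gene lists and on all genes tested, with the other drug (circles) and without it (squares). For replication-dependent histones the JQ1 effect is -1.001 with vemurafenib and -0.15 without, and for interferon stimulated genes the vemurafenib effect is 0.12 with JQ1 and 0.67 without.

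**Figure D4:**
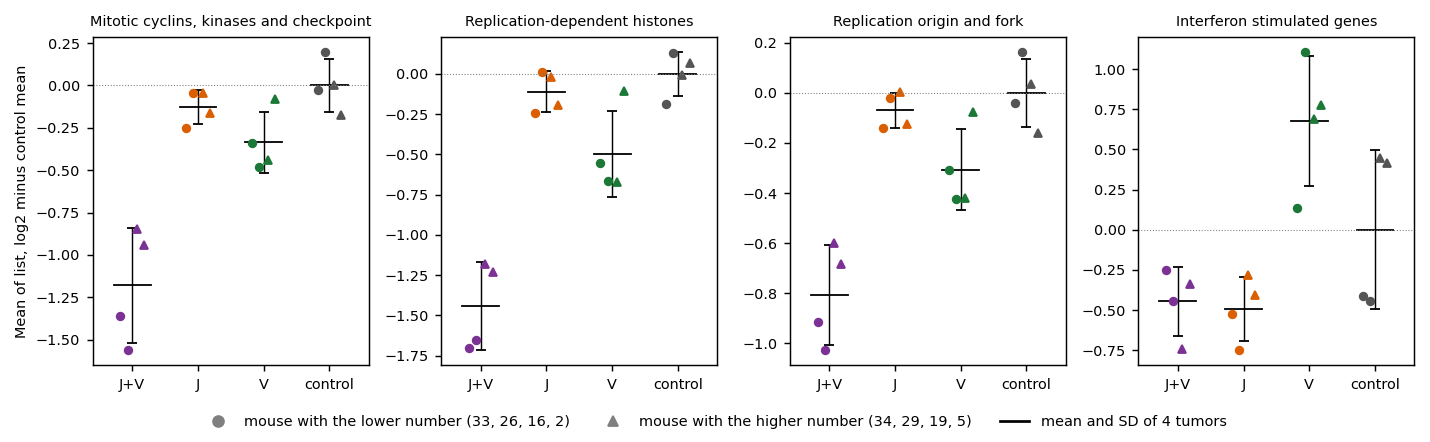
Mean of 4 gene lists in each tumor, in log2 relative to the control mean, by group (J+V, J, V, control). Circles and triangles are the tumors of the 2 mice of a group and black lines the mean and SD of 4 tumors. In the mitotic list the J+V tumors span -1.56 to -0.85, below the lowest V tumor at -0.48, and in the interferon list the control mice lie apart.

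Tumor by tumor, the mean of the mitotic list relative to control was -1.36, -1.56, -0.85 and -0.94 in J+V tumors, against -0.25 to -0.04 in J tumors, -0.48 to -0.08 in V tumors and -0.18 to 0.20 in control tumors. J+V tumors stood apart from all others, and within the group mouse 33 was lower than mouse 34. The histone mean was -1.70, -1.65, -1.18 and -1.23 in J+V tumors, -0.24 to 0.02 in J tumors, -0.67 to -0.10 in V tumors and -0.19 to 0.13 in control tumors. V tumor 19R was the closest of its group to control in the mitotic, replication and histone lists.

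Interferon stimulated genes were below the sum in another way. In J+V tumors the 40 genes had a median difference of -1.11 from V and 0.12 from J on the log2 scale, whereas the median difference from control was -0.48 in J and 0.67 in V tumors. Of the 40, 25 fell in J+V against V tumors and 1 in J+V against J tumors, where 8.31% and 18.4% of all genes fell. The median departure was -0.54. At an unadjusted p below 0.05, 8 of the 40 were below the sum and 0 above, against 9.50% and 3.11% of all genes. The control mice differed: the list mean was -0.43 in mouse 2 and 0.43 in mouse 5, and the median departure was -0.13 without mouse 2 and -0.93 without mouse 5. The mean of all 9 fibroblast markers relative to control ran from 0.25 to 1.06 in J+V tumors, 0.27 to 0.55 in J tumors, 0.11 to 0.78 in V tumors and -0.49 to 0.97 in control tumors (-0.44 in mouse 2, 0.44 in mouse 5), and their part in the interferon result was not tested.

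OASL, a relative of the antiviral oligoadenylate synthetases, had 1.204, 1.06, 0.799 and 1.23 FPKM in J+V tumors, against 2.49, 3.09, 3.68 and 3.900 in J tumors, 4.27, 7.17, 4.11 and 5.41 in V tumors and 1.897, 2.78, 4.91 and 6.85 in control tumors. The J+V tumors lay below all others, control tumors 5L and 5R were at the level of V, and the departure was -1.68 (standard error 0.388, adjusted p = 0.107). ISG15, a ubiquitin-like modifier induced by interferon, had 5.21, 3.35, 2.57 and 4.79 FPKM in J+V tumors, against 5.19, 5.21, 7.81 and 7.39 in J tumors, 13.2, 42.7, 25.9 and 26.5 in V tumors and 7.67, 6.94, 22.4 and 25.3 in control tumors. Mouse 5 reached the V level and mouse 2 the J level, and the departure of -1.53 had a standard error of 0.563 (adjusted p = 0.275). IFITM1, a membrane protein that limits virus entry, had 48.5, 39.9, 32.4 and 39.7 FPKM in J+V tumors, against 42.1, 31.1, 48.9 and 46.7 in J tumors, 86.6, 179, 113 and 154 in V tumors and 49.9, 41.1, 64.97 and 108 in control tumors. J+V and J tumors overlapped there, the fall of J+V against V was 1.68 on the log2 scale (adjusted p = 0.00163), and the departure was -1.11 (standard error 0.372, adjusted p = 0.24).

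Outside these groups, the gene with the smallest p was IL11, a cytokine of the IL-6 family that signals through gp130. IL11 had 1.54, 1.41, 2.205 and 2.76 FPKM in J+V tumors, against 9.43, 12.1, 9.001 and 10.4 in J tumors, 5.38, 5.65, 6.02 and 9.26 in V tumors and 6.83, 8.26, 11.6 and 8.19 in control tumors. The highest J+V tumor had 2.76 FPKM and the lowest other tumor 5.38. The JQ1 effect was -1.52 with vemurafenib and 0.23 without, a departure of -1.75 (standard error 0.275, 95% interval -2.34 to -1.16, adjusted p = 0.0981). NR2F1, a nuclear receptor of neural crest development, had 2.66, 2.58, 3.83 and 3.24 FPKM in J+V tumors, against 6.25, 6.07, 5.08 and 4.99 in J tumors, 6.74, 7.302, 8.18 and 9.08 in V tumors and 5.17, 4.55, 5.58 and 8.18 in control tumors. Its V tumors were the highest on average and its J+V tumors the lowest, and the departure was -1.19 (standard error 0.221, adjusted p = 0.0981).

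PLAUR, the receptor that holds urokinase at the cell surface, had 4.64, 3.78, 7.803 and 8.65 FPKM in J+V tumors, against 16.8, 22.4, 19.7 and 20.7 in J tumors, 14.8, 13.99, 14.8 and 18.3 in V tumors and 18.4, 23.2, 23.4 and 23.8 in control tumors. It departed by -1.16 (standard error 0.276, adjusted p = 0.122 from limma). Of 23 metalloproteinases and inhibitors 8 were below the sum (34.8%, against 9.50% of all genes) and 2 above (8.70%, against 3.11%), with a median of -0.25. NT5E (CD73), which makes adenosine outside the cell, had 38.4, 37.9, 57.8 and 55.1 FPKM in J+V tumors, against 79.7, 87.3, 89.2 and 98.3 in J tumors, 70.1, 87.2, 87.6 and 88.2 in V tumors and 73.4, 71.7, 99.4 and 73.3 in control tumors. Here the single drugs left the level at or slightly over control, the J+V tumors lay below every other tumor, and the departure was -0.996 (standard error 0.204, adjusted p = 0.0997). PXN (paxillin), an adaptor of focal adhesions, had 10.2, 12.03, 12.7 and 12.1 FPKM in J+V tumors, against 20.8, 23.1, 21.1 and 22.3 in J tumors, 14.3, 14.6, 17.4 and 18.6 in V tumors and 17.5, 17.2, 16.7 and 20.1 in control tumors. J tumors were the highest of the groups and J+V tumors the lowest, with a departure of -0.73 (standard error 0.132, adjusted p = 0.0981).

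Readouts of both drug targets were mixed. Of 25 MAPK feedback and ERK output genes 8 were below the sum (32.0%, against 9.50% of all genes) and 2 above (8.0%, against 3.11%), with a median of -0.27. The list mean departed by -0.21, by -0.34 without mouse 34 and by -0.08 without mouse 33. The 8 included PHLDA2 at -1.36 (adjusted p = 0.152) and ETV4, an ETS factor induced by ERK, at -0.54 (adjusted p = 0.179). DUSP6, the phosphatase that shuts off ERK and a standard readout of the pathway, had 95.8, 100.4, 109.6 and 145 FPKM in J+V tumors, against 137, 114, 111 and 121 in J tumors, 99.2, 103, 89.7 and 106 in V tumors and 117, 113, 117 and 151 in control tumors. The J+V tumors overlapped each other group, the V tumors lay below J and control, and the departure was 0.20 (standard error 0.174, adjusted p = 0.661). MYC, often lowered by BET inhibitors, had 5.18, 5.34, 5.16 and 4.95 FPKM in J+V tumors, against 4.87, 5.49, 4.61 and 5.47 in J tumors, 7.39, 3.71, 3.61 and 5.13 in V tumors and 5.92, 5.71, 4.31 and 5.703 in control tumors. Its groups overlapped too, and the departure was 0.17 (standard error 0.224, 95% interval -0.31 to 0.65, adjusted p = 0.79). HEXIM1, a BET inhibitor response gene that holds P-TEFb inactive, departed by -0.29 (adjusted p = 0.468 from limma). Of 23 BET and P-TEFb genes 2 were below (8.70%, near the 9.50% of all genes) and 0 above (median -0.19).

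Genes of the wider drug response varied. Of 27 cholesterol genes 7 were below (25.9%, against 9.50% of all genes) and 0 above (median -0.19). Their median effects were -0.43 for JQ1 with vemurafenib and -0.20 without, and for vemurafenib -0.64 with JQ1 and -0.43 without. Of 75 oxidative phosphorylation genes 11 were below (14.7%, against 9.50% of all genes) and 0 above (median -0.24), and of 37 proteasome genes 8 (21.6%) and 0 (median -0.21).

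Of 27 pro-apoptotic genes and caspases 8 were below the sum (29.6%, against 9.50% of all genes) and 0 above (median -0.17), with BAX, which opens the mitochondrial outer membrane, at -0.61 (adjusted p = 0.283) and the BH3-only gene BBC3 (PUMA) at -0.51 (adjusted p = 0.253). Of the 12 BCL2 family guardians and IAPs only BIRC5, given above, was below at an unadjusted p below 0.05, while BCL2 had a departure of -0.26 (adjusted p = 0.601), BCL2L1 (BCL-XL) one of -0.39 (adjusted p = 0.492) and MCL1 one of -0.14 (adjusted p = 0.811). CDKN1A (p21), the p53 target that stops CDKs, departed by -0.50 (adjusted p = 0.351), and 7 of 25 p53 targets were below and 0 above (median -0.21). AKT1 departed by -0.44 (adjusted p = 0.253) and EZH2, the methylase of Polycomb, by -0.50 (adjusted p = 0.245).

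Several lists had medians close to that of all genes or to 0. Over all genes 9.50% lay below the sum and 3.11% above. Ribosomal proteins had 1 of 81 below and 0 above (median 0.06), ribosome biogenesis genes 2 of 43 and 0 (median -0.07), the MYC and MAX network 1 and 2 of 10 (median -0.01), and heat shock proteins 2 and 0 of 22 (median -0.01).

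On the other side of the sum stood some genes of the melanocyte lineage, which descends from the neural crest. The list of 17 melanocyte and pigment genes had 4 above the sum and 2 below at an unadjusted p below 0.05, against 3.11% and 9.50% of all genes, and a median of 0.11. Departures of its members ran from -1.01 to 1.33. ERBB3, the neuregulin receptor, had 38.1, 51.7, 35.9 and 30.03 FPKM in J+V tumors, against 16.5, 13.4, 13.3 and 16.3 in J tumors, 17.7, 17.3, 18.01 and 13.95 in V tumors and 15.05, 11.4, 12.3 and 19.9 in control tumors. The J+V tumors lay above all others and the other groups overlapped, with a departure of 1.13 (standard error 0.236, adjusted p = 0.0997).

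EDNRB, the endothelin receptor of melanoblasts, had 22.01, 27.04, 23.5 and 23.9 FPKM in J+V tumors, against 14.5, 9.81, 11.1 and 13.9 in J tumors, 15.1, 15.9, 13.1 and 11.3 in V tumors and 15.6, 8.76, 12.1 and 13.5 in control tumors. Again every J+V tumor was above every other tumor, and the departure was 0.79 (standard error 0.218, adjusted p = 0.157). S100B, a calcium-binding protein used as a melanoma marker, departed by 0.97 (standard error 0.28, adjusted p = 0.178). Of the 8 melanoma markers that passed the filter, 1 was above the sum and 1 below, against 3.11% and 9.50% of all genes. Departures of those markers ran from -0.45 to 0.97 (median 0.15). MITF, PAX3 and MLANA, named after their values were seen, had departures of 0.02, -0.04 and 0.11. The 26 neural crest-like genes split, 2 above and 3 below (median -0.09), against 3.11% and 9.50% of all genes. RXRG, a retinoid receptor of that list, had 2.47, 2.65, 4.11 and 2.84 FPKM in J+V tumors, against 1.703, 0.992, 0.857 and 0.764 in J tumors, 1.66, 0.684, 0.941 and 0.645 in V tumors and 0.945, 0.5805, 0.561 and 0.952 in control tumors. Its departure of 0.97 (standard error 0.306, adjusted p = 0.214) rested on low levels, with most tumors outside J+V under 1 FPKM. RXRG passed the filter of 1 FPKM in 4 tumors only through the J+V tumors, so the filter itself favored a positive departure.

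RELL1, a membrane protein of the TNF receptor superfamily's RELT group, had the smallest p above the sum. RELL1 had 33.7, 33.2, 29.02 and 27.2 FPKM in J+V tumors, against 20.8, 17.97, 18.8 and 19.1 in J tumors, 17.4, 17.6, 19.2 and 18.2 in V tumors and 23.7, 24.7, 23 and 16.1 in control tumors. Both single drugs were slightly under control, only J+V was over it, and the departure was 0.92 (standard error 0.156, 95% interval 0.58 to 1.25, adjusted p = 0.0981). CADM1, an adhesion molecule of the immunoglobulin family, had 25.9, 30.6, 20.5 and 21.1 FPKM in J+V tumors, against 12.1, 7.63, 11.1 and 11.2 in J tumors, 10.5, 12.96, 9.17 and 8.76 in V tumors and 10.5, 9.79, 7.498 and 8.16 in control tumors. Its departure was 0.997 (standard error 0.231, adjusted p = 0.107).

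LRRC8D, a subunit of volume-regulated anion channels, had 23.2, 24.2, 23.8 and 23.3 FPKM in J+V tumors, against 16.8, 15.97, 16.6 and 16.7 in J tumors, 16.1, 13.9, 17.05 and 14.4 in V tumors and 14.7, 13.7, 14.6 and 15.1 in control tumors. The change was small and even, and the departure of 0.43 had a standard error of 0.0895 (adjusted p = 0.0997). FCGR2A, an Fc receptor best known from myeloid cells, had 8.72, 10.7, 8.95 and 8.74 FPKM in J+V tumors, against 4.57, 3.16, 3.01 and 4.04 in J tumors, 4.43, 3.502, 4.35 and 3.46 in V tumors and 5.28, 3.53, 2.71 and 3.45 in control tumors. The lowest J+V tumor had 8.72 FPKM and the highest other tumor 5.28, with a departure of 1.14 (standard error 0.223, adjusted p = 0.0981). The mean of the 3 myeloid markers that passed the filter, relative to control, ran from -0.26 to 0.16 in J+V tumors, -0.09 to 0.46 in J tumors, -0.25 to 0.20 in V tumors and -0.31 to 0.41 in control tumors, and their part in the FCGR2A result was not tested.

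**Figure D5:**
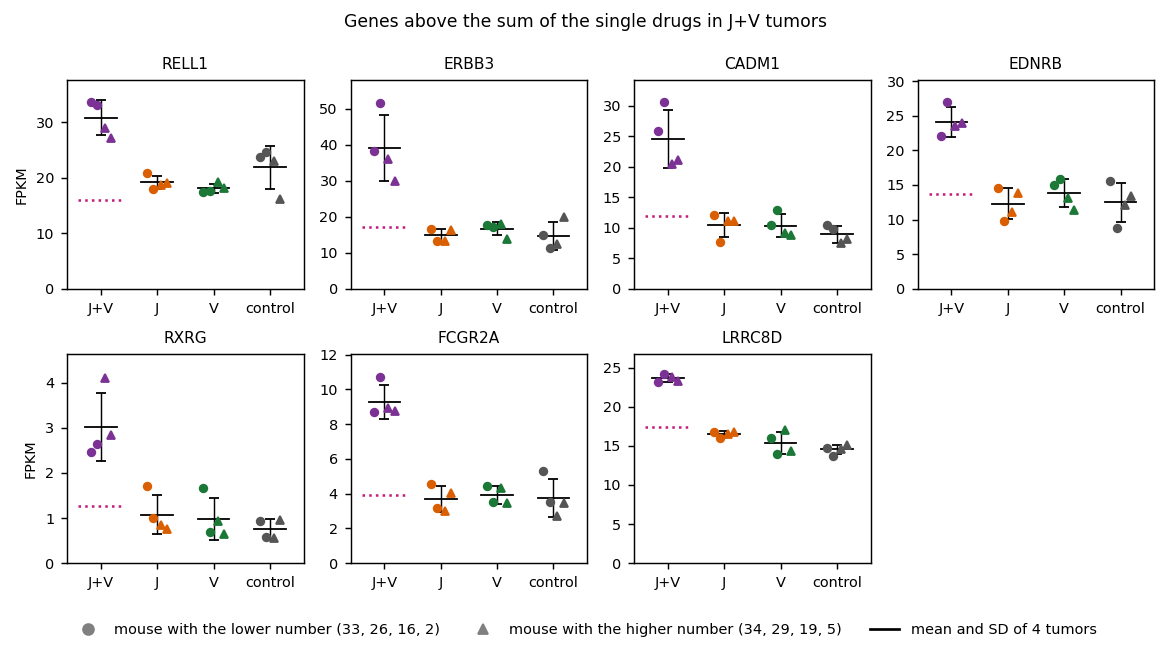
FPKM of 7 genes above the sum in each of the 16 tumors, by group (J+V, J, V, control). Symbols, lines and the pink dotted level are those of the plot of genes below the sum. The 4 J+V tumors lie above the dotted level and above all tumors of the other groups in every panel. The genes were picked for lying above the sum, so their place above that level follows from the choice. How many of all genes have J+V tumors above all others was not computed.

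A few smaller sets also had members above the sum, where 3.11% of all genes lay. Of 17 noncoding hosts of small nucleolar RNAs 2 were above (11.8%) and 0 below (median 0.14), GAS5, which accumulates when translation is low, departing by 0.55 (adjusted p = 0.317). Of 23 ER chaperones and unfolded protein response genes 3 were above (13.0%) and 0 below (median -0.03), among them DNAJB9, an ER co-chaperone, at 0.28 (adjusted p = 0.254). Small nucleolar RNAs had the widest departures with the least precision: of 141 C/D box RNAs 6 were above (4.26%) and 3 below (median 0.00). SNORD23 had 24.4, 52.3, 25.9 and 47.6 FPKM in J+V tumors, against 61.7, 87.98, 46.2 and 40.9 in J tumors, 0, 0, 0 and 19.4 in V tumors and 178, 19.2, 45.4 and 83.2 in control tumors. It is listed at 0 in 3 of 4 V tumors, and its departure of 4.92 had a standard error of 1.32 (adjusted p = 0.156).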

How the data were processed

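RNA of 16 A375 tumors was sequenced after removal of ribosomal RNA (RiboZero, ScriptSeq v2). The authors mapped reads to hg19 with TopHat2 and deposited FPKM per gene symbol; bcl2fastq, TopHat and Cufflinks are named in the submitters' processing notes. Annotation and mouse-read removal were not given in the sources used here. Depth is unknown and counting intervals were not computed; an exact 0 means only that a gene is listed at 0.

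Groups came from the treatment labels. Genes that reached 1 FPKM in 4 tumors or more (13426 of 23260) were fitted on log2(FPKM + 0.5) with limma 3.58.1 in R 4.3.3, with an intensity trend and the mouse as a block (correlation -0.07, 12 residual degrees of freedom), and p-values were adjusted by Benjamini-Hochberg over all genes tested. Fold changes on this scale understate those of low genes. With 2 mice a group, p-values measure mainly the spread between tumors. The negative correlation means that the block did not make the test stricter. At an unadjusted p below 0.05 there were 1121 genes below and 366 above without it, against 1275 and 418 with it. One correlation served all genes, although the J+V mice differed in some lists (mean of the kinesin list -1.48 in mouse 33 and -0.78 in mouse 34). The code was also run on simulated data with departures added to some genes. Those simulated tumors were independent and had no mouse effect, so that run does not cover tumors that share a mouse.

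The gene lists and the comparison were chosen with earlier results of these data known. Genes were named by a rule: up to 12 per direction by size of departure among genes called, filled up by smallest p as none was called, then the 2 to 5 members of each list with the smallest p, then 14 fixed genes. Promoters came from RefSeq tables for GRCh38.p14, matched by symbol. Alternatives covered the pseudocount, the filter, scaling, block, weights and each tumor or mouse left out. The alternatives for counts other than the departure were chosen after seeing the data. Some genes that the rule selects are not reported here.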

Additional observations from a re-analysis of the deposited data

Results flagged for a closer look

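In 12 of 148 sets of 4 tumors examined, 1 tumor stood far from the other 3 relative to the range of its group (Dixon's test at the 95% level, which chance meets in about 1 of 20 groups). Their part in the departures was not tested beyond the fits that leave out each tumor.

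Among J+V tumors, HIST3H2BB was 15.3 FPKM in 34L and 8.93 to 9.72 in the others, and FCGR2A was 10.7 in 33R and 8.72 to 8.95 in the others. Among J tumors, 26L was low in BIRC5 (19.3 FPKM, against 23.4 to 24.3) and in E2F1 (1.47 FPKM, against 2.41 to 2.62).

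Among V tumors, NT5E was 70.1 FPKM in 16L and 87.2 to 88.2 in the others, and ERBB3 was 14.0 in 19R and 17.3 to 18.0 in the others. SNORD23 was 19.4 FPKM in 19R and is listed at 0 in the others.

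Among control tumors, PLAUR was 18.4 FPKM in 2L and 23.2 to 23.8 in the others. Tumor 5L was high in NT5E (99.4 FPKM, against 71.7 to 73.4) and low in MYC (4.31 FPKM, against 5.70 to 5.92). Tumor 5R was low in RELL1 (16.1 FPKM, against 23.0 to 24.7) and high in DUSP6 (151 FPKM, against 113 to 117).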

How the results depend on the processing

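No gene departed from the sum under another pseudocount, filter or scaling, without the mouse block, or with a flank term (limma). The mean of each mouse gave 1 below and 1 above, array weights 96 and 20, and the study's thresholds on the main fit 22 and 4. Without the mouse block, with TPM or with upper quartile scaling no adjusted p was below 0.1, so the study's thresholds would call no gene there. Leaving out a tumor or mouse gave 0 to 315 below and 0 to 48 above. Without a mouse, its group held only the 2 tumors of the other mouse, so those counts carry no spread between its mice. At an unadjusted p below 0.05, array weights gave 2147 below and 648 above, TPM 246, upper quartile 663 and quantile normalization 917 above, and leaving out a tumor or mouse 658 to 2121 below and 275 to 651 above. Causes were not tested.

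Median departures with a tumor or mouse left out ran from -1.11 to -0.41 (mitotic cyclins and kinases), -1.06 to -0.32 (kinesins), -0.58 to -0.23 (replication), -1.16 to -0.63 (histones) and -0.93 to -0.13 (interferon). MCL1 ran from -0.33 to 0.054, positive without mice 26, 2 or 33.

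Alternatives chosen after seeing the data bore on the single contrasts. In J against control, 1 gene was higher with the mean of each mouse, 327 with array weights and 0 to 94 with a tumor or mouse left out. Lower were 1 with upper quartile scaling, 1 with the mean of each mouse, 58 with array weights and 0 to 15 left out. In V against control, 41 were higher with array weights (0 to 248 left out), and lower were 1 with the mean of each mouse, 25 with array weights and 0 to 175 left out. In J+V against J, higher were 488 with TPM, 1788 with upper quartile, 1966 with quantile normalization, 680 with the mean of each mouse and 2320 with array weights (279 without mouse 29 to 1521 without control tumor 5R). Lower were 1577 with the mean of each mouse and 3889 with array weights (857 to 2919). In J+V against V, higher were 235 with TPM and 103 with the mean of each mouse (109 without mouse 33 to 962 without mouse 2), and lower were 2653 and 131 (221 to 1469).

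No paired analysis was possible because tumor numbers name tumors within a group and link none across groups. With 2 mice a group and FPKM without depth, small departures could not be told from spread.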
